A study of Mus musculus with 9 samples.

Results

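The 9 genes described here encode the core enzymes of the hepatic methionine cycle and of its links to one-carbon metabolism, namely Mat1a, Gnmt, Bhmt, Ahcy, Cbs, Cth, Pemt, Shmt1 and Shmt2. They were taken by gene symbol from a table of 19686 rat genes, and all 9 were found. Liver RNA from 9 male Wistar rats was sequenced, 3 rats in each of 3 groups. Rats of the control group drank purified water, and rats of the model group drank 15% fructose for 8 weeks. Rats of the HME group, labelled DSS in the deposited data, drank the same fructose and also received the 50% methanol extract of Danggui-Shaoyao-San, a Chinese herbal formula, at 1.8 g/kg by gavage. The control and model groups received saline by gavage, and all rats were fasted for 12 h before liver was taken. The samples are labelled as mouse, although Wistar is a rat strain and the table holds rat Ensembl identifiers. The comparison of the model and control groups addresses the response to fructose, and that of the HME and model groups addresses the response to the extract in fructose-fed rats. Both rest on the same 3 model rats, and the comparison of HME with control shares rats with each of them.

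In liver, methionine is converted to S-adenosylmethionine, the methyl donor of most cellular methylation. Once the methyl group has been passed on, S-adenosylhomocysteine remains and is split to homocysteine. Homocysteine is either methylated back to methionine, with a methyl group from betaine or from folate, or is committed to cysteine through transsulfuration. Serine feeds both sides, as the acceptor of the sulfur and as the main source of one-carbon units on folate. The liver is the main organ of this cycle, and its state is linked to phosphatidylcholine supply and to hepatic fat.

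Levels are given as CPM, counts scaled to library size with TMM normalization over the 9 libraries, in the order of rats 1, 2 and 3 of a group. CPM does not account for transcript length, so levels are compared between groups for 1 gene and not between genes. Fold changes are log2 values from edgeR's quasi-likelihood test on the 6 libraries of a comparison, and FDR is the Benjamini-Hochberg adjusted p over all genes tested. A call required a log2 fold change of 0.5 or more in size together with an FDR of 0.01 or less, and an FDR of 0.05 with the same minimum fold change served as a second, looser threshold. In bulk tissue, fewer cells of a type and less RNA per cell cannot be told apart.

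Total counts ranged from 14345819 to 26837227 per library. The summed level of 8 hepatocyte markers, such as albumin and transferrin, ranged from 139100 to 225000 CPM, which fits the labelled tissue. It lay between 139100 and 176500 CPM in control rats, between 177300 and 225000 in model rats and between 172700 and 218900 in HME rats. Albumin alone held 87430 to 146300 CPM. Of the list, Tf and Apob lay higher and Hnf4a and Cps1 lower in every model rat than in every control rat. Pericentral hepatocyte markers summed to 5356 to 5777 CPM in control rats, 4256 to 4925 in model rats and 5021 to 6521 in HME rats. The members of this list did not move together. Cyp2e1 and Oat lay lower, and Glul and Rnase4 higher, in every model rat than in every control rat. The sum of 10 periportal markers overlapped across the groups (3327 to 3891, 3117 to 4740 and 3576 to 6325 CPM), while its members did not move together. Hal and Hsd17b13 lay higher, and Sds, Gls2 and Aldh1b1 lower, in every model rat than in every control rat. These are 50% of the list, against 21.1% of all genes. Between HME and control, edgeR called 1 of the 10 at the stricter threshold, lower, against 1.48% of all genes. Control rat 1 had the lowest hepatocyte sum and the highest sum of 9 leukocyte and Kupffer cell markers (616.5 CPM against 200.6 to 430.9 in the other rats). Within the hepatocyte list, however, Hnf4a (697.9 CPM) and Cps1 (4461 CPM) were highest in this rat. The part of these differences in the results below was not tested.

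Mat1a encodes the liver form of methionine adenosyltransferase, which makes S-adenosylmethionine. Mat1a (ENSRNOG00000011351) stood at 2282, 2330 and 2580 CPM in control rats, 1923, 2212 and 2135 in model rats and 2428, 2188 and 2566 in HME rats. All 3 model rats lay below all 3 control rats, while the HME rats overlapped with both groups. The difference was small against the spread between rats, at a log2 fold change of -0.20 between model and control (SE 0.15, 95% interval -0.54 to 0.14, FDR 0.6). The HME group differed from the model group by 0.20 (95% interval -0.14 to 0.54, FDR 0.826) and from the control group by -0.01 (FDR 0.976). Means were 2397 ± 160, 2090 ± 150 and 2394 ± 191 CPM (SD, n = 3) in control, model and HME rats.

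Gnmt encodes glycine N-methyltransferase, which passes the methyl group of S-adenosylmethionine to glycine and is known as an abundant liver enzyme. In this table, Gnmt (ENSRNOG00000016349) was close to absent. Its counts were 4, 2 and 2 reads in control rats, 9, 3 and 6 in model rats and 6, 5 and 5 in HME rats, too few to pass the filter for testing. A second gene model, LOC100911564, is described in the table as a glycine N-methyltransferase-like gene and held 9, 13 and 6 reads in control rats, 23, 4 and 4 in model rats and 9, 5 and 10 in HME rats. The 2 gene models together held 7 to 32 reads per library. Reads that match both gene models cannot be assigned to either, and whether this lowered the counts was not tested. These counts are given as the table holds them and were not taken as a level of Gnmt mRNA. Of the 9 genes, the other 8 passed the filter in every comparison.

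Pemt encodes the enzyme that makes phosphatidylcholine by methylating phosphatidylethanolamine, a major use of S-adenosylmethionine in liver. Pemt (ENSRNOG00000054423) stood at 244.2, 309.9 and 227.5 CPM in control rats, 283.3, 221.8 and 256 in model rats and 215.3, 184.3 and 240.5 in HME rats. The 3 groups overlapped. Means were 261 ± 43.5, 254 ± 30.8 and 213 ± 28.1 CPM (SD, n = 3), in the order control, model and HME. The log2 fold change was -0.04 between model and control (FDR 0.942), -0.24 between HME and model (95% interval -0.61 to 0.12, FDR 0.797) and -0.29 between HME and control (FDR 0.275).

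Ahcy encodes S-adenosylhomocysteine hydrolase, which removes the product that inhibits methyltransferases. Ahcy (ENSRNOG00000017777) stood at 703, 761.8 and 913.1 CPM in control rats, 875.1, 766.8 and 748.5 in model rats and 1020, 661.6 and 978.5 in HME rats. The groups overlapped, and the model and control means were nearly equal at 797 ± 68.4 and 793 ± 108 CPM (SD, n = 3). The log2 fold change between model and control was 0.0044 (FDR 0.994), and it was -0.14 with library size alone as the scaling. The HME group, at 887 ± 196 CPM, differed by 0.16 from the model group (FDR 0.888) and by 0.15 from the control group (FDR 0.658).

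Bhmt encodes betaine-homocysteine methyltransferase, which returns homocysteine to methionine with a methyl group from betaine. Bhmt (ENSRNOG00000011200) had the widest spread of the 8 tested genes within a group. Control rats stood at 2396, 5467 and 6215 CPM, model rats at 3355, 2733 and 3104 and HME rats at 2576, 3405 and 3434. Control rats 2 and 3 lay above every rat of the other groups, whereas control rat 1 was the lowest of all 9. The coefficient of variation among control rats was 43.1%. Means were 4693 ± 2024, 3064 ± 313 and 3138 ± 487 CPM (SD, n = 3) in control, model and HME rats. The log2 fold change between model and control was -0.62 (SE 0.33, 95% interval -1.37 to 0.13, FDR 0.476), and without control rat 1 it was -0.94 (FDR 0.145), while without control rat 3 it was -0.36 (FDR 0.802). The HME group differed from the control group by -0.59 (SE 0.35, FDR 0.346), without control rat 1 by -0.90 (FDR 0.0238) and without control rat 3 by -0.33 (FDR 0.654). Between HME and model the difference was 0.04 (FDR 0.972).

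**Figure D1:**
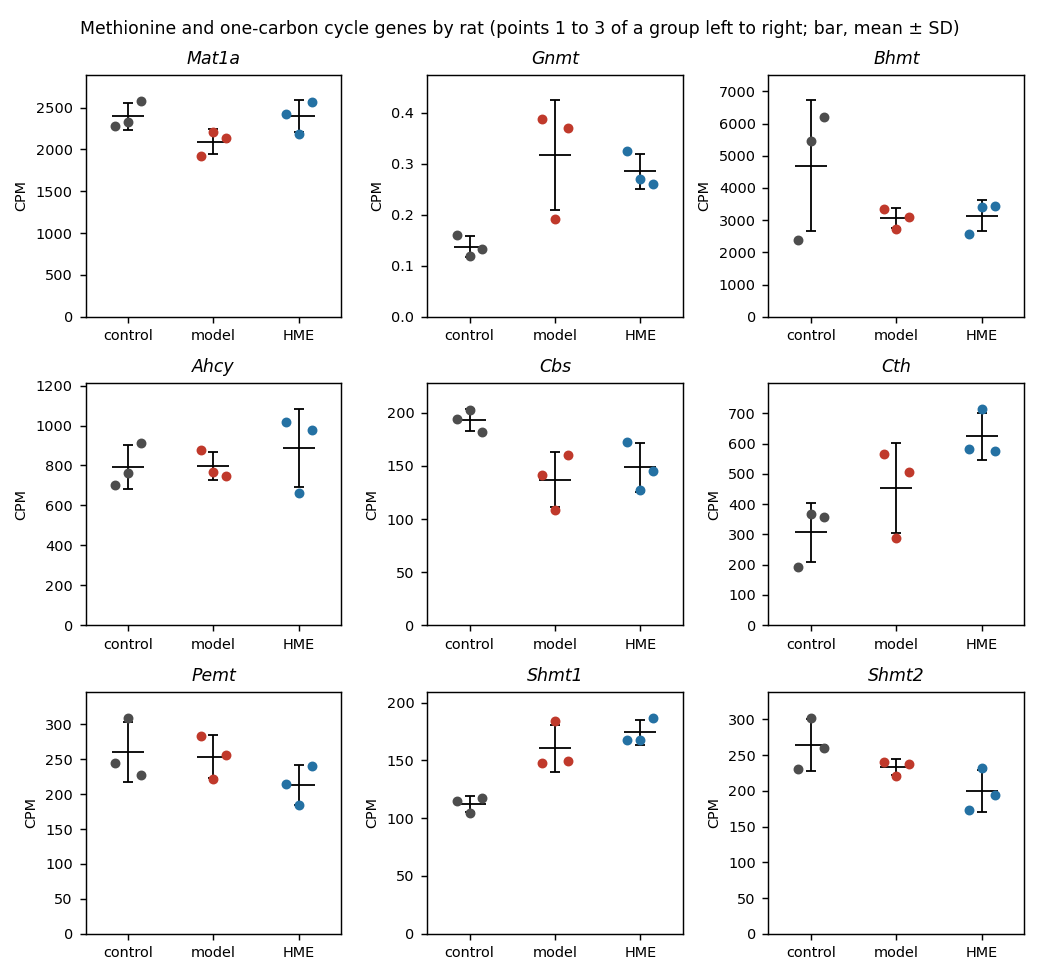
Level of each of the 9 genes in CPM (y axis, starting at 0) in the 3 rats of the control, model and HME groups (x axis). Each point is 1 rat, and the bar is the mean with its SD. Shmt1 lies higher in the model and HME rats than in every control rat, Cbs lies lower in them, Cth is highest in the HME rats, and Gnmt, drawn on its own scale, stays at or below 0.3872 CPM.

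Cbs and Cth encode the enzymes that carry homocysteine to cysteine. Cystathionine beta-synthase, the product of Cbs, joins homocysteine to serine. Cbs (ENSRNOG00000029528) stood at 194.6, 202.7 and 181.8 CPM in control rats, 141.5, 108.8 and 159.9 in model rats and 172.9, 127 and 145.6 in HME rats. All 6 fructose-fed rats lay below all 3 control rats. The log2 fold change between model and control was -0.50 (SE 0.17, 95% interval -0.88 to -0.12, unadjusted p 0.0167 and FDR 0.258 by edgeR). Between HME and control it was -0.38 (SE 0.13, 95% interval -0.68 to -0.08, unadjusted p 0.0173 and FDR 0.115 by edgeR). Neither passed an FDR of 0.05. The HME and model rats overlapped, with a difference of 0.12 (FDR 0.917).

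Cystathionine gamma-lyase, the product of Cth, splits cystathionine to give cysteine. Cth (ENSRNOG00000010658) stood at 193.8, 366.7 and 358.1 CPM in control rats, 566.4, 286.8 and 506.9 in model rats and 582.5, 713.9 and 574.8 in HME rats. The HME rats were the highest 3 of the 9, and model rat 2 lay within the range of the control rats. Means were 306 ± 97.4, 453 ± 147 and 624 ± 78.2 CPM (SD, n = 3), in the order control, model and HME. The HME group lay above the control group by a log2 fold change of 1.02, or 2.03-fold (SE 0.24, 95% interval 0.46 to 1.57, edgeR FDR 0.0439), so Cth passed the looser threshold and was not called at the stricter one. The FDR rose above 0.05 when HME rat 1, 2 or 3 was left out (0.112, 0.113 and 0.0791), and also when control rat 2 or 3 was left out (0.0733 and 0.0741). It was 0.0545 with no filter on low counts and 0.0845 with all 9 libraries in one fit. Without control rat 1, where Cth was lowest, the log2 fold change was 0.78 and the FDR 0.0316. The model group differed from the control group by 0.56 (SE 0.32, FDR 0.501) and the HME group from the model group by 0.46 (SE 0.25, 95% interval -0.12 to 1.05, FDR 0.734). These became 0.32 without control rat 1 and 0.36 without model rat 1 for the former, and 0.22 without model rat 2 for the latter. A second gene model described as cystathionine gamma-lyase, LOC103691744, held 28, 14 and 20 reads in control rats, 19, 13 and 29 in model rats and 30, 64 and 83 in HME rats, and adding its reads to those of Cth gave the same fold change of 1.02 (FDR 0.043).

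Shmt1 and Shmt2 encode the cytosolic and mitochondrial serine hydroxymethyltransferases, which interconvert serine and glycine and load one-carbon units on folate. Shmt1 (ENSRNOG00000005275) stood at 115.2, 104.4 and 117.5 CPM in control rats, 148, 183.8 and 149.5 in model rats and 168, 167.2 and 187 in HME rats. Every fructose-fed rat, with or without the extract, lay above every control rat. Means were 112 ± 6.97, 160 ± 20.2 and 174 ± 11.2 CPM (SD, n = 3) in control, model and HME rats. Shmt1 rose between control and HME by a log2 fold change of 0.63, or 1.54-fold (SE 0.11, 95% interval 0.38 to 0.87, edgeR FDR 0.012), the smallest FDR among the 8 genes in the 3 comparisons. It stayed at or below 0.0486 with any 1 of the 6 rats left out, while with library size alone as the scaling the log2 fold change was 0.49, below the minimum. Between control and model the log2 fold change was 0.51, or 1.42-fold (SE 0.14, 95% interval 0.19 to 0.82, unadjusted p 0.00553 and FDR 0.159 by edgeR, FDR 0.0471 by DESeq2). The HME and model groups differed by 0.12 (FDR 0.882).

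Shmt2 had the opposite order of group means. Shmt2 (ENSRNOG00000008106) stood at 230.9, 302.7 and 260.1 CPM in control rats, 241, 220.6 and 238.2 in model rats and 173.7, 231.9 and 194.7 in HME rats. Neighbouring groups overlapped. The mean was 265 ± 36.1 CPM in control rats, 233 ± 11.1 in model rats and 200 ± 29.4 in HME rats (SD, n = 3). The log2 fold change was -0.18 between model and control (FDR 0.637), -0.22 between HME and model (FDR 0.809) and -0.41 between HME and control (SE 0.15, 95% interval -0.75 to -0.07, edgeR FDR 0.13). No comparison of Shmt2 passed a threshold.

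Counted over the comparisons, edgeR called none of the 8 tested genes at the stricter threshold in any of them, and DESeq2 called 2, both between HME and control. Between model and control, edgeR called 0 of 8, against 0.0801% of all 12486 genes tested (10 genes), DESeq2 called 0 of 8, against 2.05%, and 2 of 8 had an unadjusted p under 0.05, against 13.2% of all genes. The rats of the groups did not overlap for 3 of 8, with Shmt1 higher and Mat1a and Cbs lower in model rats, against 21.1% of all genes. Between HME and model, edgeR called 0 of 8, against 0.136% of 12502 genes, DESeq2 called 0 of 8, against 1.18%, and 0 of 8 had an unadjusted p under 0.05, against 8.02%. Only Cth, higher in HME rats, was without overlap there, against 13.9% of all genes. Between HME and control, edgeR called 0 of 8, against 1.48% of 12633 genes. At an FDR of 0.05 it called 2 of 8, Shmt1 and Cth, both higher, against 6.36% of all genes in either direction and 3.07% higher. DESeq2 called Shmt1 (FDR 1.19e-05) and Cth (FDR 0.000329) at the stricter threshold, 2 of 8, against 6.09% of all genes. Groups did not overlap for Shmt1, Cth and Cbs, 3 of 8, against 30% of all genes, and 4 of 8 had an unadjusted p under 0.05, against 24.3%. The median log2 fold change of the 8 genes was -0.11 between model and control, 0.12 between HME and model and -0.15 between HME and control, while the medians of all genes were -0.0011, 0.00078 and -0.0080.

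**Figure D2:**
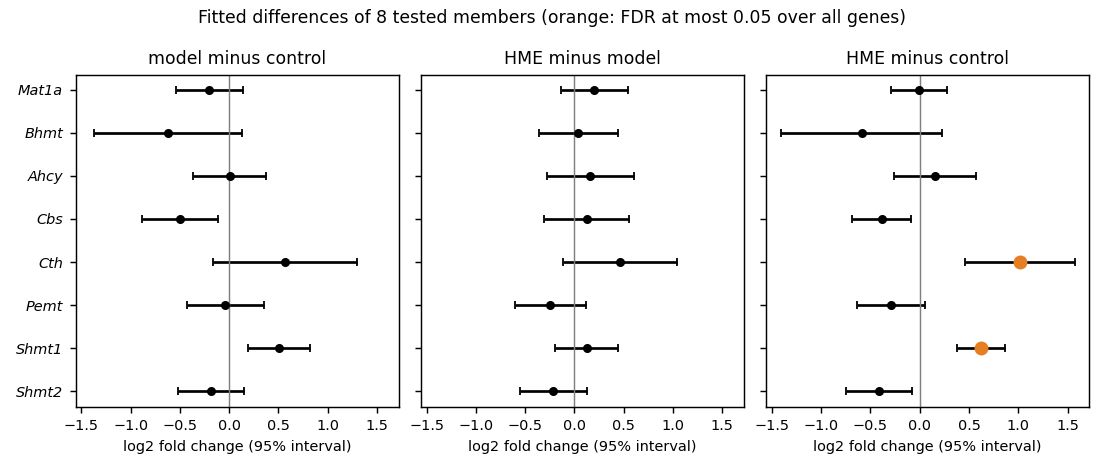
Log2 fold change of the 8 tested genes (x axis) in each of the 3 comparisons. Each point is an edgeR estimate and each bar its 95% interval, in orange where the FDR over all genes was at most 0.05. In the comparison of HME and control, Cth at 1.02 and Shmt1 at 0.63 lie to the right of 0 with their whole intervals, and all 8 intervals between HME and model include 0.

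Ratios of 2 genes within a library do not depend on scaling, and 6 ratios at branch points of the cycle were compared in 18 exact permutation tests, two-sided, in which 3 rats against 3 cannot give a p below 0.1. Because of this limit none of the ratios could pass a threshold. The log2 ratio of Shmt1 to Shmt2 counts was -1.004, -1.535 and -1.147 in control rats, -0.7034, -0.2635 and -0.6722 in model rats and -0.04801, -0.4717 and -0.0578 in HME rats. It lay higher in every fructose-fed rat than in every control rat. The difference was 0.68 between model and control and 1.04 between HME and control, each at the smallest exact permutation p of 0.1 (adjusted 0.45). Between HME and model it was 0.35 with overlap (exact permutation p 0.2).

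The ratios that set the routes of homocysteine and of phosphatidylcholine side by side overlapped in each comparison. For Bhmt over Cbs, remethylation against transsulfuration, the difference was 0.0085 between model and control, -0.10 between HME and model and -0.09 between HME and control. For Bhmt over Mtr, the folate-dependent methionine synthase, it was -0.50, -0.45 and -0.95, in the same order. The size of these Bhmt over Mtr values changed when single rats were left out, and the sign changed only between HME and model. Leaving out 1 rat gave -1.18 (without control rat 1) to -0.097 (without control rat 2) between model and control, and -1.62 to -0.54 (without the same rats) between HME and control. Between HME and model the difference turned to 0.074 without model rat 1 and was -0.77 without model rat 2. For Pemt over Pcyt1a, the rate-limiting step of the CDP-choline route, it was 0.49, -0.26 and 0.23. For Mat1a over Mat2a, the other methionine adenosyltransferase gene, which held 429 to 949 reads in these liver libraries, it was -0.16, 0.49 and 0.33. The ratio of Gnmt to Pemt rests on 2 to 9 Gnmt reads and is not read further.

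**Figure D3:**
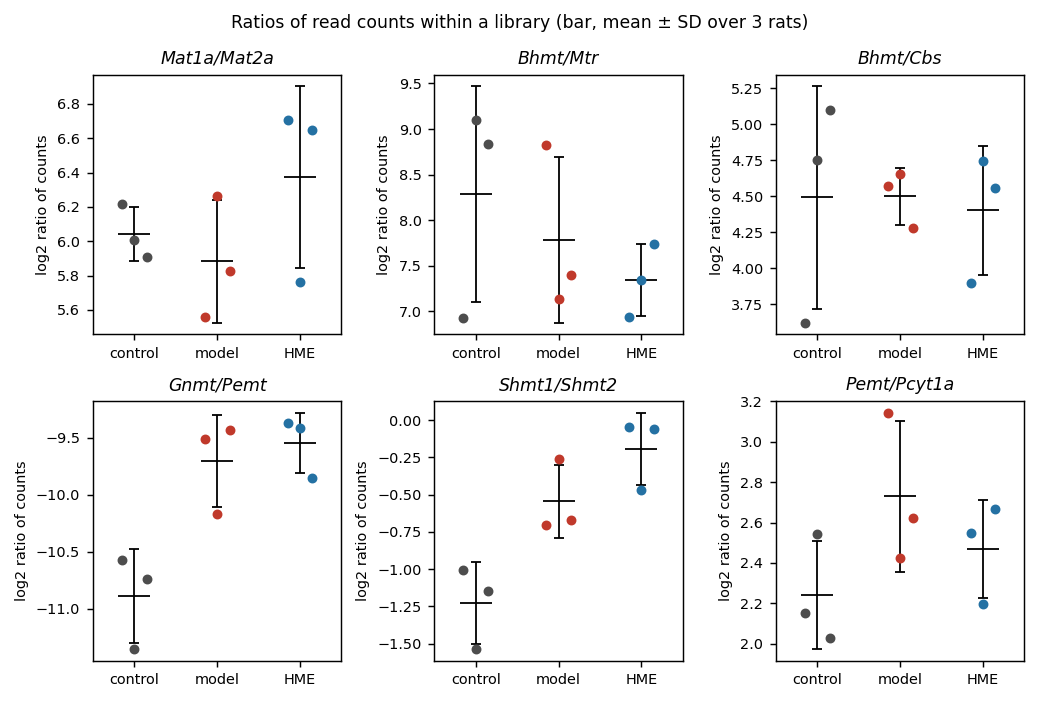
Log2 ratio of the counts of 2 genes within a library (y axis) for 6 pairs, with 1 point per rat and a bar for the mean and SD of each group. The ratio of Shmt1 to Shmt2 lies higher in every model and HME rat than in every control rat.

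The other genes of the pathway were taken from 6 lists. Of 12 genes of serine and glycine metabolism, all tested, 1 passed an FDR of 0.05 between model and control, against 0.601% of all genes at that threshold, 0 between HME and model (against 0.456%) and 1 between HME and control (against 6.36%). In the same order, 4, 1 and 4 of the 12 had an unadjusted p under 0.05 by edgeR, against 13.2%, 8.02% and 24.3% of all genes. Psat1, an enzyme of serine synthesis, stood at 3.453, 4.044 and 1.595 CPM in control rats, 19.92, 15.27 and 38.11 in model rats and 4.82, 19.69 and 9.206 in HME rats. Psat1 rose between control and model by a log2 fold change of 2.99 (SE 0.44, edgeR FDR 0.0307, DESeq2 FDR 7.48e-11). The edgeR FDR was above 0.05 when model rat 1 or 3 or any control rat was left out (0.0606 to 0.13). Every HME rat lay above every control rat for Psat1, with a log2 fold change of 1.865 that did not pass an FDR of 0.05 by edgeR. The first enzyme of the same route, Phgdh, stood at 3.172, 4.46 and 0.3323 CPM in control rats and 11.53, 27.53 and 34.84 in model rats. Its log2 fold change of 3.18 did not pass by edgeR (SE 0.69, edgeR FDR 0.113) and had a DESeq2 FDR of 0.0317. In HME rats Phgdh stood at 5.957, 16.23 and 6.085 CPM, above every control rat. The HME and model groups differed by -1.38 for Phgdh (FDR 0.542) and by -1.12 for Psat1 (FDR 0.666).

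Sds, the serine dehydratase that breaks serine down to pyruvate, stood at 44.85, 11.83 and 52.43 CPM in control rats and 5.592, 1.476 and 1.354 in model rats, with a log2 fold change of -3.64 between model and control (SE 0.71, edgeR FDR 0.0844 and DESeq2 FDR 0.00166). The model rats lay below every control rat, and Sds is also on the list of periportal markers. In HME rats it ranged from 0.7551 to 41.1 CPM. Agxt, which makes glycine from glyoxylate with alanine as donor, stood at 49.11, 49.36 and 51.83 CPM in control rats, 115.5, 72.64 and 89.26 in model rats and 93.74, 79.34 and 97.52 in HME rats. By edgeR, Agxt was the member of this list called at the stricter threshold, with a rise of 0.84 between control and HME (SE 0.11, edgeR FDR 0.00359). Its FDR was between 0.0127 and 0.0174 when HME rat 1 or 3 or any control rat was left out. Between control and model the log2 fold change of Agxt was 0.88 (edgeR FDR 0.0888). In that comparison DESeq2 called Psat1 (FDR 7.48e-11), Sds and Agxt (FDR 0.00192) at the stricter threshold.

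**Figure D4:**
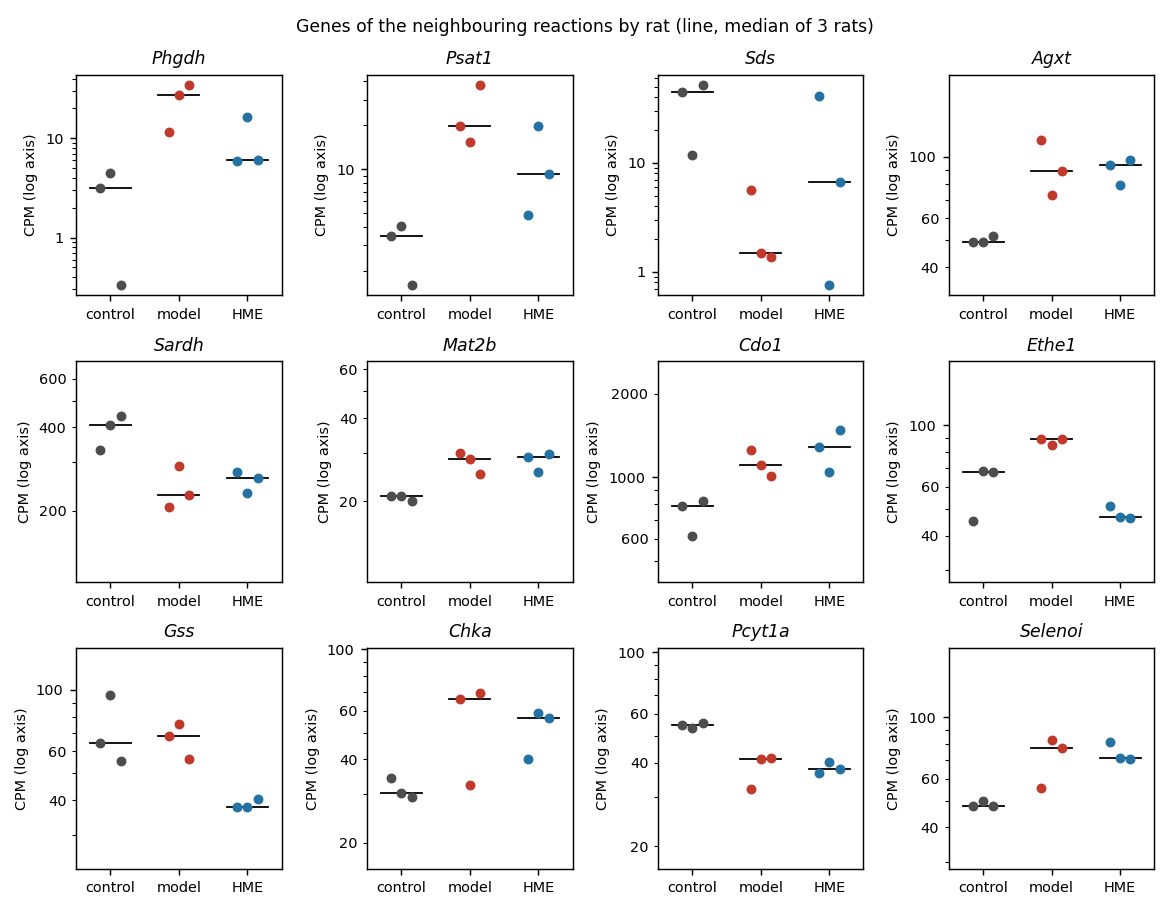
Levels of neighbouring pathway genes in CPM on a log axis (y axis) in the 3 rats of each group, with 1 point per rat and a line at the group median. Psat1 and Phgdh lie higher in all 3 model rats than in all 3 control rats, and Sds lies lower in them.

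Of the 20 genes of the folate cycle, 20, 18 and 19 were tested between model and control, HME and model, and HME and control, and 0 passed an FDR of 0.05 in any of them by edgeR (0.601%, 0.456% and 6.36% of all genes did), while 4, 0 and 6 had an unadjusted p under 0.05, against 13.2%, 8.02% and 24.3% of all genes. Mthfd2, a mitochondrial folate enzyme named here after its values were seen, stood at 1.405, 0.7136 and 0.3323 CPM in control rats and 5.764, 1.476 and 4.371 in model rats, with a log2 fold change of 2.19 (SE 0.61, edgeR FDR 0.176). In HME rats it stood at 0.7581, 4.854 and 1.872 CPM and overlapped with both other groups. Between model and control, 12 genes of the list had a positive and 8 a negative log2 fold change. Of the list, 4 genes lay higher and 3 lower in every model rat than in every control rat, 35% against 21.1% of all genes. The median log2 fold change of the list was 0.07, -0.13 and -0.02, in the same order of comparisons.

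On the list of choline and betaine oxidation, 6 of 6 genes were tested. By edgeR 0, 0 and 1 passed an FDR of 0.05 in that order, against 0.601%, 0.456% and 6.36% of all genes. An unadjusted p under 0.05 was found for 1, 0 and 2, against 13.2%, 8.02% and 24.3% of all genes. Sardh, the sarcosine dehydrogenase that recovers the one-carbon unit of the Gnmt product, stood at 331.7, 408.6 and 440.6 CPM in control rats, 206, 288.9 and 227.3 in model rats and 276.8, 231 and 262.5 in HME rats. Sardh fell between control and HME by 0.62 on the log2 scale (edgeR FDR 0.0329), and the FDR was above 0.05 when any rat but control rat 1 was left out (0.0751 to 0.106). Between model and control the log2 fold change was -0.71 (FDR 0.13). Of 21 genes for the use and salvage of S-adenosylmethionine, 20, 19 and 20 were tested and 0 passed with the minimum fold change by edgeR, with 2, 4 and 7 at an unadjusted p under 0.05, against 13.2%, 8.02% and 24.3% of all genes. Mat2b, the regulatory subunit of the other methionine adenosyltransferase, had an FDR of 0.0476 between HME and control at a log2 fold change of 0.44, which is below the minimum, and the FDR was 0.052 to 0.136 with any 1 rat left out.

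Of 12 genes that use cysteine, 11 were tested in each comparison, and 0, 1 and 2 passed an FDR of 0.05 by edgeR, against 0.601%, 0.456% and 6.36% of all genes. By edgeR 4, 2 and 6 of the 11 had an unadjusted p under 0.05, against 13.2%, 8.02% and 24.3% of all genes. Cdo1, the cysteine dioxygenase that starts the route to taurine, rose between control and HME by 0.77 (edgeR FDR 0.0283). It stood at 785.5, 612.8 and 823.1 CPM in control rats and 1280, 1047 and 1474 in HME rats, and in model rats at 1249, 1104 and 1012. Gss, glutathione synthetase, fell between control and HME by 0.91 on the log2 scale (edgeR FDR 0.0284), from 64.28, 95.74 and 55.29 CPM to 37.64, 37.65 and 40.2. The FDR of Cdo1 was above 0.05 without any 1 rat except HME rat 2 (0.0539 to 0.09), and that of Gss was above 0.05 without any HME rat or without control rat 1 (0.0617 to 0.104). Ethe1, a mitochondrial enzyme of sulfide breakdown, fell between model and HME by 0.86 on the log2 scale (SE 0.12, edgeR FDR 0.0315), from 88.92, 84.83 and 89.51 CPM to 51.07, 46.76 and 46.29. Control rats stood at 45.09, 68.15 and 68.05 CPM, below every model rat, and the HME rats lay within the control range. Between model and control the log2 fold change of Ethe1 was 0.54 (edgeR FDR 0.255). By edgeR, Ethe1 was the gene of the 6 lists that passed an FDR of 0.05 between HME and model, and DESeq2 passed Gss as well (DESeq2 FDR 0.00107). Gss stood at 68.1, 75.59 and 56.51 CPM in model rats, above every HME rat, with a log2 fold change of -0.79 between HME and model (edgeR FDR 0.0738). The FDR of Ethe1 was above 0.05 without any HME rat or model rat 3 (0.116 to 0.201).

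The list of the CDP-choline route, the other source of phosphatidylcholine, also holds genes of enzymes that act on ethanolamine (Etnk1, Etnk2, Pcyt2 and Selenoi). Of its 10 genes, 9 were tested in each comparison, and 0, 0 and 3 passed an FDR of 0.05 by edgeR. The edgeR test gave 5, 0 and 6 an unadjusted p under 0.05. All genes passed these thresholds in 6.36% and 24.3% of cases between HME and control, in 0.601% and 13.2% between model and control, and in 0.456% and 8.02% between HME and model. Selenoi, an ethanolamine phosphotransferase, rose between control and HME by 0.61 (SE 0.099, edgeR FDR 0.0093) and was the gene of this list called at the stricter threshold by edgeR. It stood at 47.86, 49.71 and 47.65 CPM in control rats, 55.66, 82.78 and 77.63 in model rats and 81.01, 71.46 and 70.89 in HME rats. Leaving out any 1 rat brought its FDR above the stricter threshold (0.0171 to 0.0377). Chka, choline kinase, rose between control and HME by 0.72 (edgeR FDR 0.0243, DESeq2 FDR 0.00131). Pcyt1a, which encodes the rate-limiting enzyme of the same route, fell in this comparison by 0.52 on the log2 scale (edgeR FDR 0.014, DESeq2 FDR 0.00114). DESeq2 called Chka, Pcyt1a and Selenoi at the stricter threshold. The members of 1 route thus moved in opposite directions. The FDR of Chka was above 0.05 without HME rat 2 or 3 or control rat 2 or 3 (0.0608 to 0.0806), and that of Pcyt1a was above it without HME rat 1 or control rat 3 (0.0577 and 0.0522). Without HME rat 1 or 3 or control rat 3, the log2 fold change of Pcyt1a was -0.488, -0.493 and -0.496, smaller in size than the minimum of 0.5. Pcyt1a stood at 54.85, 53.16 and 55.76 CPM in control rats, 32.05, 41.39 and 41.61 in model rats and 36.82, 40.23 and 37.92 in HME rats.

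**Figure D5:**
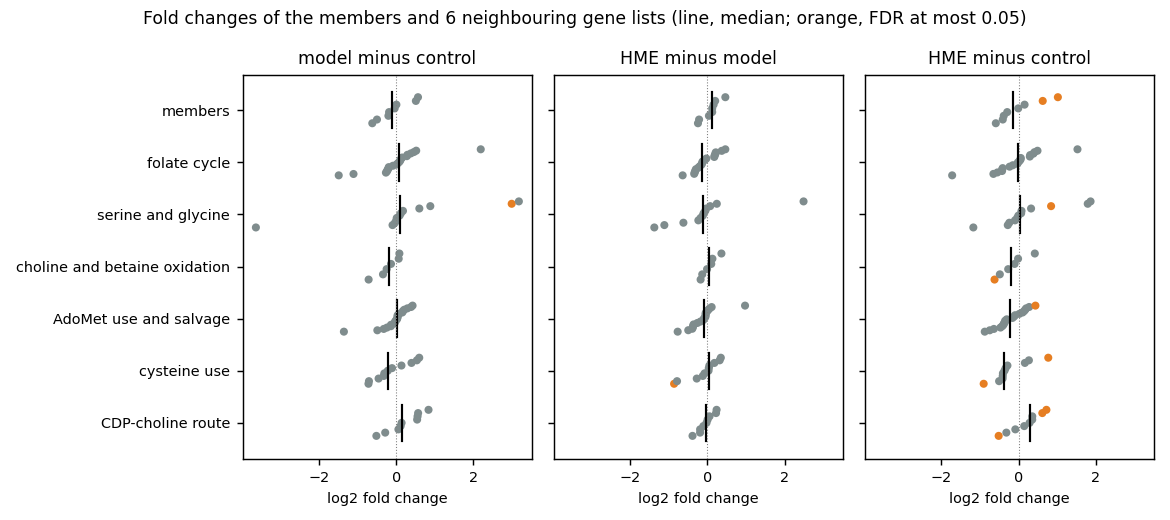
Log2 fold change (x axis) of the 8 tested enzymes of the cycle and of the tested genes of the 6 lists, with 1 point per gene (orange at an FDR of at most 0.05) and a line at each median, in the 3 comparisons. The points of each list lie on both sides of 0, and the medians lie between -0.37 for cysteine use and 0.28 for the CDP-choline route, both between HME and control.

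For each of the 9 genes, the 2 genes of the table with the most similar pattern were found by Pearson correlation of log2 CPM over the 9 libraries, among 10101 genes with a mean count of at least 50. The closest were Arl4a (0.974) and 5330417C22Rik (0.964) for Shmt1, Slc30a6 (0.977) and Cep83 (0.965) for Shmt2, Cyp2c6v1 (0.952) and Tada3 (0.941) for Cth, and Aldh3a2 (0.943) and Trim41 (0.908) for Cbs. For Pemt they were Psmg2 (0.941) and Pigh (0.934), for Mat1a Unc13a (0.914) and Pja1 (0.909), for Ahcy Alas2 (0.897) and Anpep (0.891), and for Bhmt Slc3a1 (0.886) and RGD1311847 (0.883). The 9 points share the 3 groups, and each value is the largest among many genes, so they describe these libraries only. Gnmt is left out because of its few reads. None of these neighbours belongs to the methionine cycle or to the 6 lists.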

How the data were processed

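Liver RNA of 9 rats was sequenced, 3 per group, and the labels number the rats of a group without tying rats of different groups to each other. The authors aligned the reads to Rnor_6.0 with HISAT2, counted them on exons without regard to strand with HTSeq 0.6.1, per their methods and the submitters' processing notes, and deposited raw counts per gene as whole numbers. Overlapping genes on opposite strands and near-identical gene copies can therefore share or lose reads. The deposited table of assembled transcripts, whose unit is not stated, was not used. The reference files at hand were of the mouse, so no rat sequence or coordinate is given.

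Each comparison was fitted on the 6 libraries of its 2 groups with edgeR 4.0.16 (R 4.3.3), using filterByExpr, TMM, robust glmQLFit and the two-sided glmQLFTest. Calls used the thresholds of the study. SE was taken from the log2 fold change and its F statistic, and 95% intervals from the t distribution. Two-sided exact permutation tests were used for ratios. The fit was tested on simulated data. The spread between rats, not counting error, set the precision: chi-square per gene for pairs of rats within a group was 18.2 to 65.9, and a value near 1 would reflect counting error alone. The largest values, 65.9 and 55.9, were of the pairs with model rat 1, against 34.5 or less for the other pairs. Model rat 1 also had the lowest TMM factor (0.8662) and the most counts. On the second principal component of log2 CPM it stood at -59, against -16.4 to 20.1 for the other rats. Both comparisons with the model group include this rat.

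The 9 genes, the 6 pathway lists and the marker lists were chosen with earlier results of these data known. Named genes are the 9, list genes with an FDR of at most 0.05 in any comparison, the 2 non-overlapping genes of each list with the largest fold change and a mean count of at least 50, ratio partners, and the 2 genes most correlated with each of the 9. Mthfd2, LOC100911564 and LOC103691744 were added after their values were seen, and some genes that the rule selects are not reported here. Hnmt, Gadl1, Pecam1, Fcn2, Cd79a and Hba1 were not matched by symbol. The fits were repeated with other scalings (library size alone, and the size factors of DESeq2 within edgeR), without a filter, with at least 10 counts required per library, with DESeq2 1.42.0, on all 9 libraries together, with a block for the replicate number, at an FDR of 0.05, with no minimum fold change and with each rat left out, and ratios were repeated on counts plus 1. Summing the gene copies was added after the values were seen.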

Additional observations from a re-analysis of the deposited data

How the results depend on the processing

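Between HME and control, edgeR called 0 of the 8 tested genes at the stricter threshold (4 at an unadjusted p under 0.05), and the count was 1 with no filter on low counts, 2 with DESeq2 and 2 at an FDR of 0.05. The counts over all genes moved more. Between model and control edgeR called 10 genes, 71 with no filter, 25 with all 9 libraries in one fit and 75 at an FDR of 0.05, and DESeq2 called 256. Between HME and model the 17 calls became 11 with library size alone, 38 with no filter, 147 with DESeq2 and 57 at an FDR of 0.05. Between HME and control the 187 calls became 489 with no filter, 769 with DESeq2, 113 in one fit and 804 at an FDR of 0.05. Library size alone gave 57 higher and 181 lower there, against 83 and 104 with TMM. Leaving out 1 rat gave 0 to 10, 2 to 12 and 86 to 132 calls in the 3 comparisons. The 0 came without control rat 1, 2 or 3, where edgeR still gave 1129, 1213 and 1211 genes at an unadjusted p under 0.05. Rats with the same number did not deviate together (correlations of deviations -0.231 to -0.0218, and no rat correlated best with its own number), so the replicate block was not read as a pairing. With the replicate block edgeR called 0 genes between model and control (1166 at an unadjusted p under 0.05), 7 between HME and model and 104 between HME and control, and 0 of the 8 in each. Among the neighbouring genes, the FDR passed above 0.05 for Chka (0.0639) and Ethe1 (0.0556) with library size alone, for Sardh (0.0663) and Chka (0.162) in one fit, for Psat1 (0.0512) and Mat2b (0.0504) with no filter, for Mat2b with library size alone (0.158), in one fit (0.072) and with the replicate block (0.109), and for Psat1 (0.138), Ethe1 (0.132), Sardh (0.0768) and Chka (0.065) with the replicate block. The calls of Agxt and Selenoi at the stricter threshold were lost in one fit (0.0205 and 0.0499) and with the replicate block (0.0116 and 0.0341), and that of Selenoi with library size alone (0.0364).

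The cause of the following changes of sign was not tested. With library size alone, Ahcy (-0.14) between model and control and Pcyt1a (-0.0062) between HME and model changed sign, as did Pcyt1a with all 9 libraries in one fit (-0.00097). With 1 rat left out, log2 fold changes between model and control ranged from -0.082 to 0.12 for Ahcy, -0.14 to 0.11 for Pemt and -0.26 to 0.16 for Gss. Between HME and model they ranged from -0.040 to 0.16 for Bhmt, -0.020 to 0.26 for Cbs, -0.18 to 0.16 for Agxt, -0.0015 to 0.25 for Sardh, -0.042 to 0.084 for Mat2b, -0.38 to 0.086 for Chka, -0.11 to 0.075 for Pcyt1a and -0.10 to 0.16 for Selenoi. Between HME and control Mat1a ranged from -0.045 to 0.056. The difference in the log2 ratio of Bhmt to Cbs ranged from -0.43 to 0.31, -0.27 to 0.15 and -0.52 to 0.21 in the 3 comparisons, that of Mat1a to Mat2a between model and control from -0.35 to 0.0024, and those of Bhmt to Mtr and Gnmt to Pemt between HME and model from -0.77 to 0.074 and -0.072 to 0.31. For the 8 tested genes, 299 of the alternative values kept their direction and their side of the stricter threshold, 13 changed sign and 3 passed that threshold newly. The looser threshold is not covered by these counts. Among the 9, Gnmt alone had too few reads to be tested, and the cause of this was not tested.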
